A study of Rattus norvegicus with 3 samples.

Results

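The 8 genes described here, Nefl, Nefm, Nefh, Ina, Prph, Nes, Vim and Gfap, encode intermediate filament proteins of neurons, neural progenitors and astrocytes. They were chosen by name, and each matched 1 of the 26353 entries of the deposited table. The study places Dock exchange factors in the Sonic hedgehog guided growth of commissural axons. Its RNA was taken from rat commissural neurons, the spinal cells whose axons cross the midline; they came from embryos of embryonic day 13 and spent 2 days in culture. Polyadenylated RNA was sequenced in 3 libraries, numbered as in the labels, which form 1 untreated group with no control group and no stated genotype or strain. Values are FPKM, the fragments per kilobase of transcript scaled by the authors to the mapped fragments, so levels may be compared between genes. The labels do not tie the libraries to separate cultures or animals, so p-values cover only the spread between these samples, and that spread may be technical.

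Intermediate filaments are rope-like polymers of proteins that share a central coiled rod. Neurofilaments are heteropolymers of the light, medium and heavy subunits (Nefl, Nefm, Nefh) with alpha-internexin (Ina), and they fill axons and set their calibre. Alpha-internexin and the vimentin and nestin of progenitors are known to come early in neural development, the heavy subunit late. Peripherin (Prph) is known mainly from neurons with axons in the periphery, and Gfap from astrocytes.

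The labelled cell type was compared with its markers. All 10 pan-neuronal and all 4 commissural axon genes lay above 1 FPKM by limma's one-sided test of that level, but so did all 8 radial progenitor and all 6 proliferation genes, beside 63.7% of all entries tested. The highest genes of each list by mean were the pan-neuronal Tubb3 (960 FPKM), the commissural Robo3 (104), the progenitor gene Fabp7 (564) and the proliferation gene Pcna (69.4). In RNA of whole cultures, fewer cells of a type and less RNA per cell cannot be told apart. Summed FPKM was 19897900 to 26236600 per library, of which a few entries above 10000 FPKM hold most; without these it was 430187 to 477484. Pairs of libraries correlated with Pearson's r of 0.987 to 0.994 on the log2 scale across 8069 described entries of at least 5 FPKM; genes are not independent replicates. The table holds no counts. Among low entries at 0 in 1 library, the median ratio between the other libraries was 1 to 1.06 (140 to 149 entries per pair), with quartiles between 0.712 and 1.7. Relative depth could not be resolved further from these values, and absolute depth is not known.

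The sequences before the start sites of Vim and Ina, the members with the highest RNA levels, and of Gfap, the lowest, are shown. Only for these members did a window lie wholly outside the gene's own RefSeq span, which was the rule for showing it. The sequences are the 250 bases before the RefSeq start in GRCr8, each 5′ to 3′ on the gene's strand. Capitals mark 3 motifs on either strand: the TATA-box letters TATAAA, the CAAT-box letters CCAAT, and the GC-box letters GGGCGG. Each is a match of letters, not a tested site.

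Vim (chr17:81577011-81577260, plus strand): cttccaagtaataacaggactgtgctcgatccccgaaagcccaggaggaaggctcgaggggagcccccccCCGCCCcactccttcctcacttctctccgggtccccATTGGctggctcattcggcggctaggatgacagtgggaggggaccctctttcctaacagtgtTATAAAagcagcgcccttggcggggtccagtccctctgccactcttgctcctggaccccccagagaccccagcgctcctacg
Ina (chr1:255837879-255838128, plus strand): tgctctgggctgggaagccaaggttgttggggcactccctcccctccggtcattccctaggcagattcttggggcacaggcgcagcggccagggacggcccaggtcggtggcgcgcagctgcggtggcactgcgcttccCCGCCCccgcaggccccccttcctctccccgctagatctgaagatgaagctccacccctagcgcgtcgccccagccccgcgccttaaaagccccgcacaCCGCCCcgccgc
Gfap (chr10:88361662-88361911, minus strand): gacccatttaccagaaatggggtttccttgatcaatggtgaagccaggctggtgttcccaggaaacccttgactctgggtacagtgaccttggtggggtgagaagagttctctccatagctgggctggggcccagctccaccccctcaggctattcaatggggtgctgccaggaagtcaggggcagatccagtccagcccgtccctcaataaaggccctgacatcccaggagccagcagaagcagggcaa

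The Vim window held 1 match of each motif: a GC box on the opposite strand from 180 bases before the start, a CAAT box on the opposite strand from 144, and a TATA box from 82. The Ina window held 2 GC boxes on the opposite strand, from 111 and from 12 bases before the start, and the Gfap window held none of the 3 motifs. Of the other members in the table of promoters, Prph had a TATA box from 35 and a GC box from 28 bases before the start, and Nes had GC boxes from 54 and from 43. The windows of Prph and Nes overlap the gene's own RefSeq span, so their start is not the outer edge of the gene. Their matches may lie inside the gene. No matches overlapped. Of all 33469 rat promoter windows of this length, 12.9% held the TATA box letters, 34.0% those of the CAAT box and 30.5% those of the GC box on either strand. The share of G and C was 70.8% for Ina, 64.4% for Prph, 62.4% for Vim, 60.4% for Nes and 57.6% for Gfap, against a median of 51.2% over all windows. Each lay between the 5th and 95th percentiles of all windows, 34% and 72.8%.

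Vim and Ina were by far the highest of the members, with means of 398 and 369 FPKM. Nefm and Nefl followed at 63.2 and 52.8 FPKM, Nes had 3.15 FPKM, and Nefh, Prph and Gfap were below 1 FPKM in each library. The order Vim, Ina, Nefm, Nefl, Nes, Nefh, Prph and Gfap was the same in 3 of 3 libraries. A level was called above 1 FPKM by limma's one-sided test on log2(FPKM + 0.1) with Benjamini-Hochberg adjustment over all 17611 entries above 0 in at least 1 library. By this test 5 of the 8 members were called, Vim, Ina, Nefm, Nefl and Nes, beside 63.7% of all entries tested, a share close to that of the members.

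**Figure D1:**
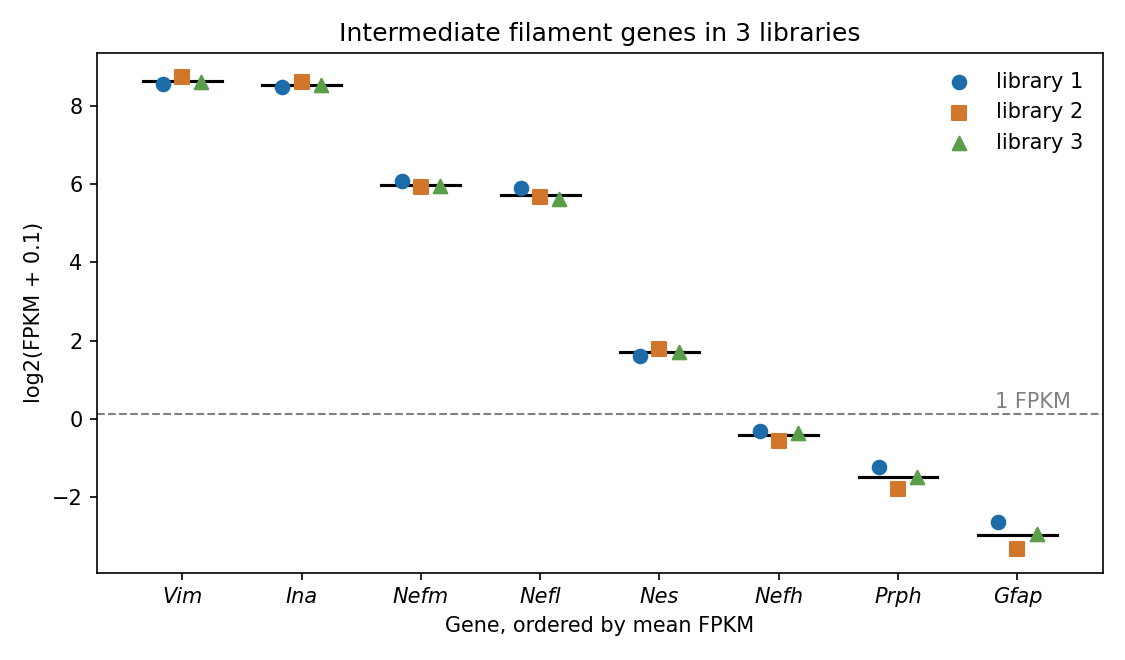
Levels of the 8 genes as log2(FPKM + 0.1) in each of the 3 libraries, ordered by mean; points are libraries, bars their mean on this scale, and the dashed line is 1 FPKM. Vim lies at 376 to 428 FPKM and Ina at 354 to 386, while Nefh, Prph and Gfap lie below the line in every library.

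Of the subunits of neurofilaments, Ina was the most abundant. In libraries 1, 2 and 3, Ina (ENSRNOG00000020248) had 354, 386 and 366 FPKM, or 369 ± 16.3 FPKM (SD, n = 3). Its level was above that of 98.7% of the entries tested. The libraries differed by at most 1.09-fold, the smallest such ratio among the members.

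Nefm (ENSRNOG00000013916), the medium subunit, had 66.9, 60.5 and 62.1 FPKM in libraries 1, 2 and 3, or 63.2 ± 3.31 FPKM (SD, n = 3). Nefl (ENSRNOG00000013658), the light subunit on which the other chains assemble, had 59.0, 50.4 and 49.1 FPKM, or 52.8 ± 5.37 FPKM (SD, n = 3). Both were highest in library 1, and for Nefl the values of libraries 2 and 3 were close together. Nefl and Nefm are neighbours on the same chromosome in RefSeq's rat assembly GRCr8, with 0 other protein-coding genes starting between them.

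Nefh (ENSRNOG00000008716), the heavy subunit with the long, phosphorylated tail, had 0.71, 0.58 and 0.68 FPKM, or 0.657 ± 0.0681 FPKM (SD, n = 3). It was below 1 FPKM in all 3 libraries and did not pass the test of that level (limma, Benjamini-Hochberg adjusted p = 1). Tested against 0.5 FPKM instead, it passed (limma, Benjamini-Hochberg adjusted p = 0.0473).

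As shares of the summed FPKM of the 4 subunit genes, Ina made up 76.0% ± 2.04 (SD, n = 3), Nefm 13.0% ± 0.878, Nefl 10.9% ± 1.20 and Nefh 0.136% ± 0.0167. Across libraries 1, 2 and 3, Ina held 73.7%, 77.6% and 76.6%. The share of Ina was lowest in library 1, where those of Nefm (13.9%) and Nefl (12.3%) were highest. The sum itself was 481, 498 and 478 FPKM in libraries 1, 2 and 3. These are shares of RNA and not of protein.

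**Figure D2:**
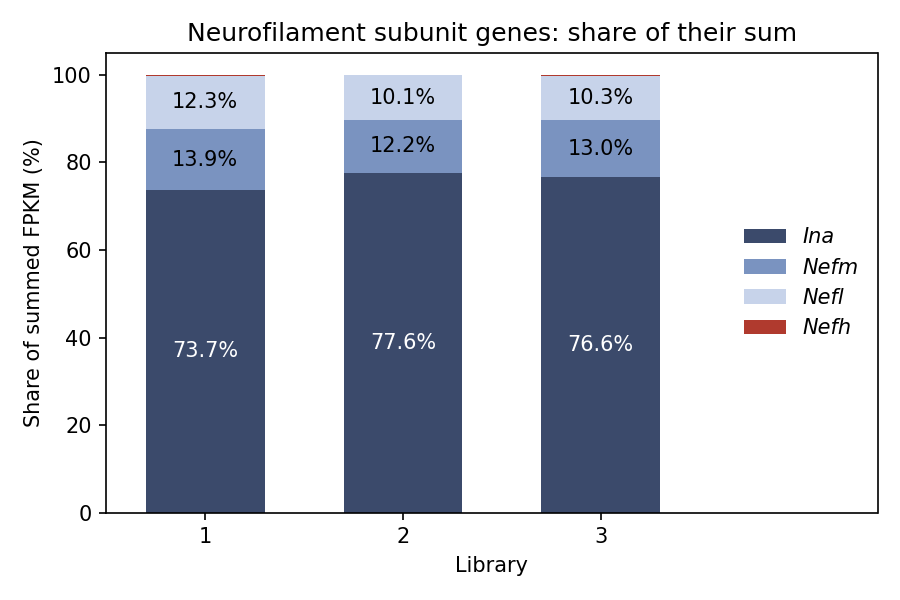
Share of the summed FPKM of Ina, Nefm, Nefl and Nefh in each library, in percent; each bar is 1 library and each colour 1 gene. Ina holds 73.7% to 77.6%, and Nefh, at 0.117% to 0.148%, is barely visible at the top.

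Prph (ENSRNOG00000015643), the type III filament of peripheral neurons, had 0.33, 0.19 and 0.26 FPKM in libraries 1, 2 and 3, or 0.26 ± 0.07 FPKM (SD, n = 3). It was lowest in library 2 and below 1 FPKM in every library. Markers of the cell classes in which peripherin is best known were mostly at low values too. Of 7 sensory ganglion and neural crest genes, 1 lay above 1 FPKM, Calca at 1.71 ± 0.282 FPKM (SD, n = 3), a peptide precursor of sensory neurons. The summed level of that list was 2.66 to 3.02 FPKM per library, and Sox10, which marks neural crest glia, was listed at 0, 0.03 and 0. Of 5 matched motor neuron genes, limma tested 3 and called 0, and 0 had an unadjusted p under 0.05. The summed level of the 5 was 0.56 to 0.76 FPKM, with Mnx1 and Isl2 listed at 0 in each library. Lhx3 was the highest of that list at 0.543 FPKM. A 0 in this table can be a failed estimate, since Capns1, a calpain subunit that most cells use, was also listed at 0. The part of these cells in the level of Prph was not tested.

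The filaments of progenitors and glia were at very unequal levels. Vim (ENSRNOG00000018087), vimentin, found in neural progenitors, young neurons and many non-neural cells, had 376, 428 and 389 FPKM in libraries 1, 2 and 3, or 398 ± 27.0 FPKM (SD, n = 3). It was highest in library 2. Over the 8695 entries of mean level at least 5 FPKM, library 2 exceeded the mean of the other libraries by a median of 0.14 on the log2 scale, though not for every entry. The summed level of the 8 radial progenitor genes was 594, 799 and 611 FPKM in libraries 1, 2 and 3, of which Fabp7, a fatty acid binding protein of radial glia, had 492, 686 and 514. Not all genes of that list were highest in library 2: Sox9 and Pax3 were highest in library 3, and Hes1 in library 1. The pan-neuronal sum (2540, 2731 and 2467 FPKM) and the proliferation sum (114, 134 and 119) were highest in library 2 as well, while the commissural axon sum was lowest there (245, 172 and 252). These lists had exceptions too: Dcx, Map2, Syt1, Top2a and Mki67 were not highest in library 2, and the commissural gene Boc was highest there. The part of the cells marked by these lists in the level of Vim was not tested.

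Vimentin is also a filament of fibroblasts, endothelium and macrophages. Of 5 matched fibroblast and mural genes, 4 were tested and 1 lay above 1 FPKM, Col3a1, a fibrillar collagen, at 2.27 ± 0.512 FPKM (SD, n = 3). The summed level of this list was 3.09 to 4.13 FPKM, and Dcn was listed at 0 in each library. The 5 endothelial genes summed to 0.40 to 0.53 FPKM, where limma called 0 (0 with an unadjusted p under 0.05), Pecam1 being the highest at 0.253 FPKM. The 5 microglia and macrophage genes summed to 7.56 to 11.7 FPKM, with 2 called, Aif1 (6.76 FPKM) and Csf1r (1.82 FPKM), the latter lost once library 2 was left out (adjusted p = 0.0842, limma with Benjamini-Hochberg adjustment).

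Nes (ENSRNOG00000018681), which the deposited table describes as nestin-like, had 2.94, 3.33 and 3.18 FPKM, or 3.15 ± 0.197 FPKM (SD, n = 3). It lay above 1 FPKM (limma, Benjamini-Hochberg adjusted p = 2.87e-07) and below 5 FPKM in every library. Whether the gene model behind this entry is complete is not known, and each comparison with Nes here carries that limit. Nestin assembles with vimentin in progenitors. Within libraries, Vim FPKM was 122 to 128 times that of Nes.

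Gfap (ENSRNOG00000002919), the filament of astrocytes, was listed at 0.06, 0 and 0.03 FPKM in libraries 1, 2 and 3. Of 6 other astrocyte genes, 3 lay above 1 FPKM, led by Slc1a2, a glutamate transporter, at 26.6 ± 1.64 FPKM (SD, n = 3), with Gja1 (6.22 FPKM) and Aldh1l1 (3.20 FPKM). Aqp4, the water channel of mature astrocytes, had 0.05 FPKM, S100b 0.27 and Gjb6 0.02.

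The members were then compared with each other within each library, where the scaling of a library plays no part apart from the added 0.1. For each member as reference, limma tested the log2 ratio of every other entry to it, two-sided, with Benjamini-Hochberg adjustment over all entries. All 28 pairs of members passed. Such calls are common in this design. From Vim, 7 of 7 other members differed, and 99.4% of all entries did. The remaining 6 of 6 pairs with Nefm passed beside 97% of all entries, 5 of 5 with Nefl beside 95.5%, 4 of 4 with Ina beside 99.3%, 3 of 3 with Prph beside 91.6%, 2 of 2 with Nes beside 94.5%, and that of Nefh with Gfap beside 94.1%. The counts are therefore near the background, and the sizes of the ratios carry the description. Pairs share members and are not independent. With nearly all entries called, the adjustment changes p little, as for Vim with Ina from 0.0281 to 0.0283 (limma, Benjamini-Hochberg). It runs over all entries and does not cover the 28 pairs as a set.

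Ina exceeded Nefm by 5.83-fold (95% interval 4.81 to 7.07) and Nefl by 6.99-fold (5.54 to 8.82). Fold differences are on the scale of log2(FPKM + 0.1), which makes those of low genes too small. Both directions held in 3 of 3 libraries. Nefm exceeded Nefh by 83.7-fold (63.7 to 110.2) and Nefl exceeded it by 69.9-fold (51.0 to 95.8), so the heavy subunit stood apart from the light and medium ones. Ina exceeded Nefh by 488-fold (378 to 632).

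The levels of Nefm and Nefl were close. Nefm was the higher in 3 of 3 libraries, by 1.20-fold with a 95% interval of 1.02 to 1.41 (adjusted p = 0.0289, limma with Benjamini-Hochberg adjustment). This call was lost without library 1 or library 3 (limma, Benjamini-Hochberg adjusted p = 0.0504 and 0.358), with Nefl as the reference (0.0961), with a prior without trend or robust option (0.0618), and against a margin of 1.5-fold (1).

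Vim and Ina were closer still. Vim was the higher in 3 of 3 libraries, by 1.08-fold with a 95% interval of 1.01 to 1.15 (adjusted p = 0.0283, limma with Benjamini-Hochberg adjustment), with FPKM ratios of 1.06, 1.11 and 1.06 in libraries 1, 2 and 3. With a variance prior taken from single genes, the interval widened to 0.899 to 1.29 and the call was lost (limma's prior, Benjamini-Hochberg adjusted p = 0.369). It was also lost without library 1 or library 3 (limma, Benjamini-Hochberg adjusted p = 0.145 and 0.0758), with Ina as the reference (0.0726), with a prior without trend or robust option (0.131) and against a margin of 1.5-fold (1). The direction could not change in these settings, since Vim was the higher in every library. What was lost is the call of a difference.

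Lower in the order, Nefl exceeded Nes by 16.3-fold (95% interval 12.8 to 20.6) and Nes exceeded Nefh by 4.30-fold (3.30 to 5.60), each in 3 of 3 libraries. Nefh was above Prph in 3 of 3 libraries, by 2.12-fold with a 95% interval of 1.42 to 3.17 (adjusted p = 2.81e-04, limma with Benjamini-Hochberg adjustment). That call was lost without library 3 (limma, Benjamini-Hochberg adjusted p = 0.0628) and against a margin of 1.5-fold (0.0534). The pairs with Gfap have no fold here, since Gfap was listed at 0 in library 2.

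**Figure D3:**
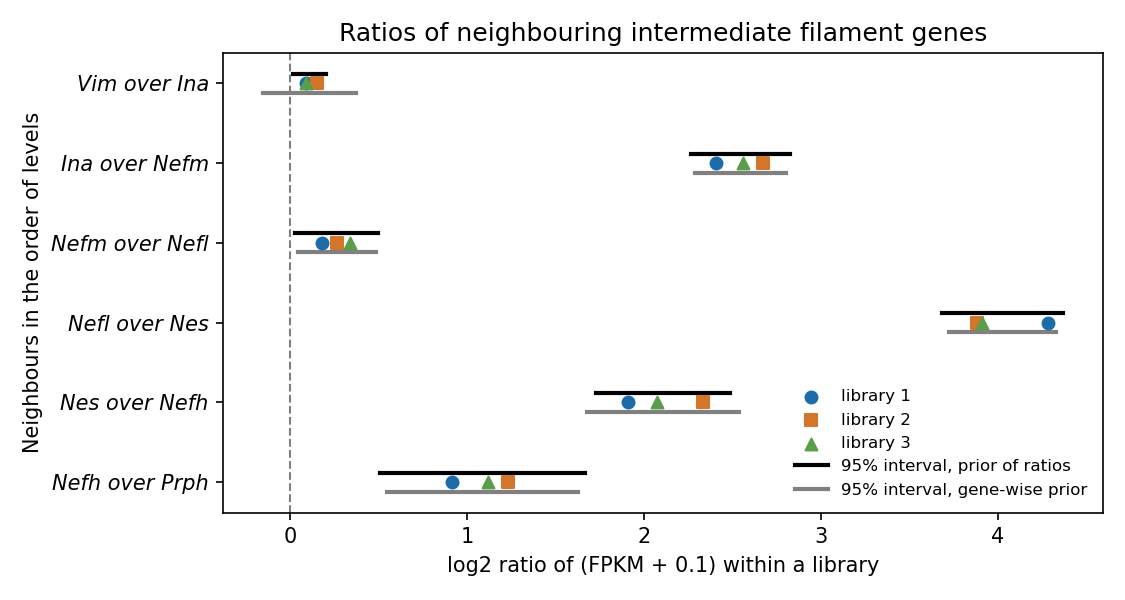
Log2 ratios of (FPKM + 0.1) between neighbours in the order of levels, within each library (points), with 95% intervals of limma's fit of ratios (black) and with the variance prior of single genes (grey); the dashed line marks equal levels. The grey interval of Vim over Ina crosses 0, and the ratios of Ina over Nefm and Nefl over Nes lie far from it.

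The sums of the neuronal and of the progenitor and glial filament genes were of the same order. Nefl, Nefm, Nefh, Ina and Prph together had 481, 498 and 478 FPKM in libraries 1, 2 and 3, and Nes, Vim and Gfap together had 379, 431 and 393. The ratio of the sums was 1.27, 1.15 and 1.22, or 1.21 ± 0.0575 (SD, n = 3). Vim and Ina alone held 86.4% ± 1.39 (SD, n = 3) of the RNA of all 8 members.

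Deviations of library 2 were unequal among the members. Library 2 was set against the mean of libraries 1 and 3 on the log2 scale, after subtraction of the median of this deviation over 8695 entries of at least 5 FPKM, which was 0.14. In this measure Vim (0.02), Nes (-0.02) and Ina (-0.04) lay close to the median, with 41.5% to 55.2% of entries lower, while Nefm (-0.23) and Nefl (-0.24) were lower in library 2, with 15.5% and 15.3% of entries lower still. Without that subtraction Vim (0.16), Nes (0.12) and Ina (0.10) were higher in library 2, and the deviations of Nefm (-0.090) and Nefl (-0.095) were smaller. As deposited, Nefl was lowest in library 3 and not in library 2. Nefh (-0.37), Prph (-0.58) and Gfap (-0.67) had the most negative deviations, at levels under 1 FPKM where the added 0.1 and rounding to 0.01 weigh on the value. The 5th and 95th percentiles of the 8695 entries of at least 5 FPKM, which do not include these 3 genes or Nes, were -0.47 and 0.23. These deviations are descriptions and were not tested.

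**Figure D4:**
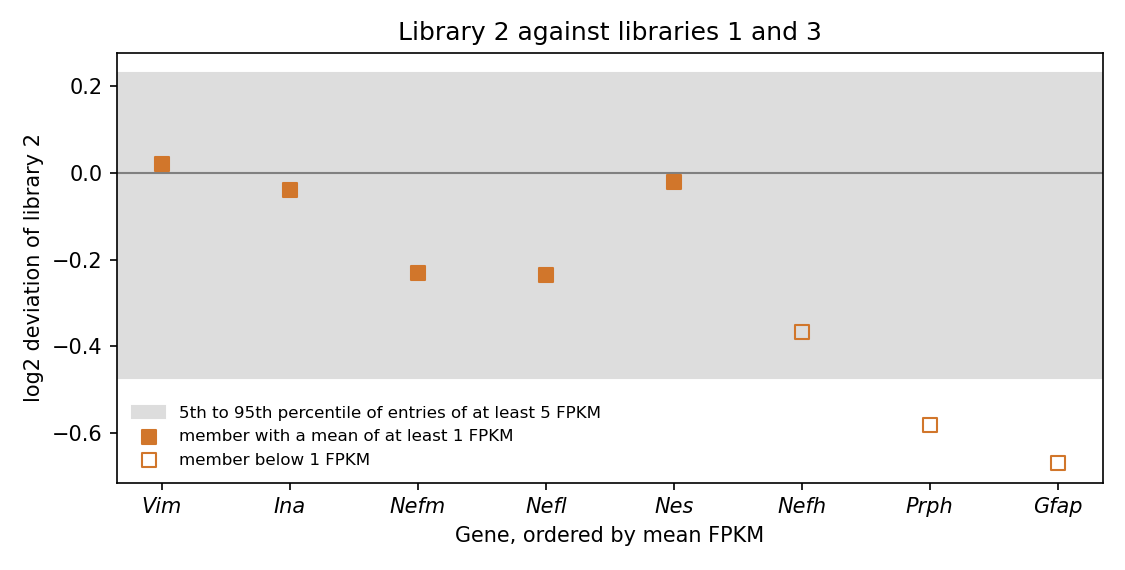
Deviation of library 2 from the mean of libraries 1 and 3, in log2 units after subtraction of the median of entries of at least 5 FPKM, for each gene; the grey band is the 5th to 95th percentile of entries of at least 5 FPKM. Vim, Ina and Nes lie near 0, Nefm and Nefl near -0.23, and the open squares are genes below 1 FPKM.

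Genes that act with intermediate filaments were read from 8 lists, of which 57 matched genes are reported here. Of these, 5 were listed at 0 in each library and not tested, and 38 of the 52 tested (73.1%) lay above 1 FPKM. The background is 63.7% of entries tested, with a median of 4.81 FPKM. The other cytoplasmic intermediate filaments were near 0 or below 1 FPKM: of 13 genes, limma tested the 9 above 0 in some library and called 0 (0 with an unadjusted p under 0.05). The median of the 13 was 0.0333 FPKM. Sync, syncoilin of muscle, was highest at 0.927 ± 0.0208 FPKM (SD, n = 3), followed by the keratin gene Krt10 (0.760) and the lens filament gene Bfsp1 (0.377). Des, the filament of muscle, had 0.0567 FPKM, and the keratin genes Krt5, Krt14, Krt18 and Krt19 were listed at 0 in each library. Synm, synemin, which assembles with vimentin, had 0.13 ± 0.03 FPKM (SD, n = 3).

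All 3 nuclear lamins, the filaments under the nuclear membrane, lay above 1 FPKM (median 17.0). Lmnb1 had 88.4 ± 3.59 FPKM (SD, n = 3), Lmnb2 17.0 ± 0.324 and Lmna 1.57 ± 0.102. Both B-type lamins were above the A-type gene in every library, and the A-type gene is known for its late onset in neural tissue. Lmnb1 was higher than Nefm and Nefl in every library.

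Of 5 matched plakins and linkers, which tie filaments to actin, microtubules and junctions, 2 lay above 1 FPKM (median 0.0367). Macf1 had 30.6, 16.1 and 28.7 FPKM in libraries 1, 2 and 3, and Dst 18.8, 9.53 and 18.0. Both were lower in library 2, and both have very long transcripts. The desmosomal genes Ppl, Evpl and Dsp had 0.0367, 0.0167 and 0.00333 FPKM.

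Of 6 genes of filament turnover reported here, 5 were tested and 4 lay above 1 FPKM (median 11.5). Stub1, a ubiquitin ligase that works with chaperones, had 80.4 ± 3.88 FPKM (SD, n = 3), Trim2, a ligase that acts on the light neurofilament chain, 34.6 ± 1.05, and the protease subunit Capn2 21.6 ± 1.29. The call of Casp6 (1.42 FPKM) was lost once library 3 was left out (adjusted p = 0.0527, limma with Benjamini-Hochberg adjustment). Capns1, the small calpain subunit, was listed at 0 in each library.

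All 17 kinases and phosphatases known to act on filament proteins lay above 1 FPKM (median 45.1). Ppp2ca, a phosphatase subunit, had 210 ± 19.4 FPKM (SD, n = 3), Cdk5r1, the neuronal activator of Cdk5, 176 ± 10.6, and the phosphatase Ppp1ca 154 ± 11.8. Cdk5, which phosphorylates the tails of the medium and heavy chains, had 39.3 ± 2.47 FPKM (SD, n = 3), above Nefh in every library. Aurkb, a mitotic kinase that acts on vimentin in dividing cells, was lowest at 6.73 ± 0.582.

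All 6 matched motor genes passed (median 81.3), led by the kinesin light chain Klc1 at 238 ± 11.0 FPKM (SD, n = 3), the neuronal kinesin Kif5c at 164 ± 0.865 and the dynactin gene Dctn1 at 93.9 ± 3.11, with Kif5b lowest at 34.8. Of 4 RNA-binding regulators of neurofilament mRNA reported here, 3 passed (median 89.6): Hnrnpk had 523 ± 35.7 FPKM, Tardbp 109 ± 8.97 and Elavl4 70.2 ± 2.64 (SD, n = 3), while Arhgef28 had 0.153. The Sox and Pou factors known from the neural enhancer of Nes passed in 3 of 3 matched genes (median 39.3), with Pou3f3 at 49.8 ± 1.84, Sox2 at 39.3 ± 5.38 and Pou3f2 at 27.9 ± 1.65 FPKM (SD, n = 3). These 3 genes were each at least 8 times the level of Nes in every library.

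**Figure D5:**
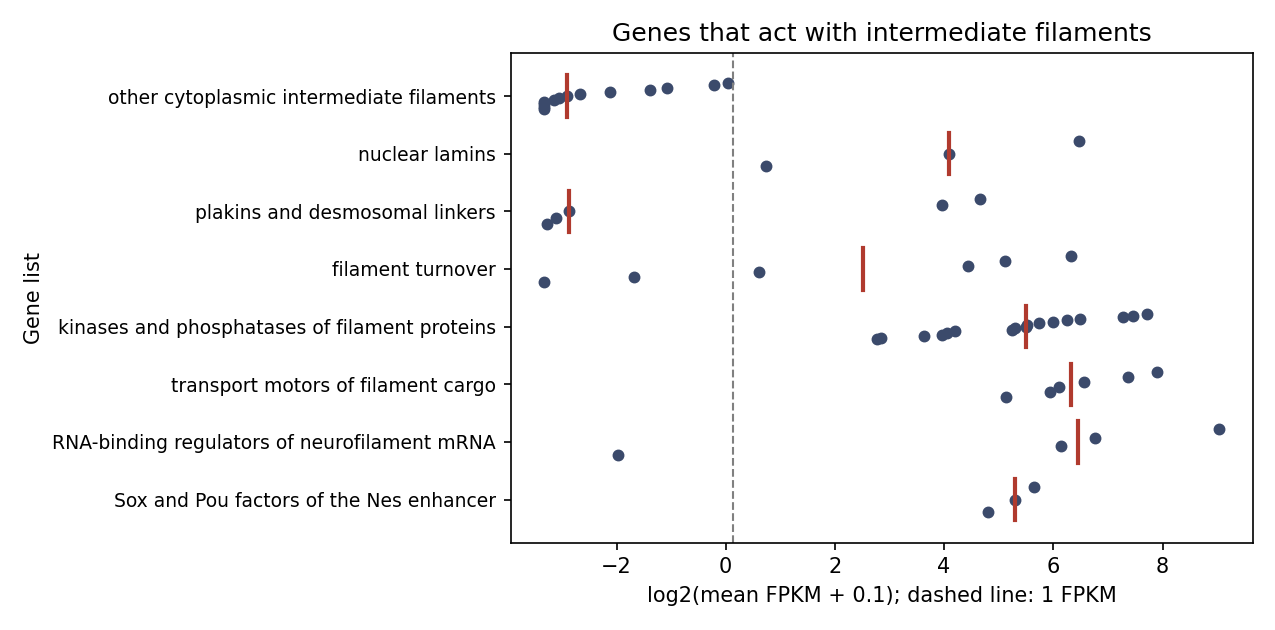
Mean level over 3 libraries, as log2(mean FPKM + 0.1), of each matched gene in 8 lists of genes that act with intermediate filaments; points are genes, red bars the list medians, and the dashed line is 1 FPKM. The 13 other cytoplasmic filament genes all lie left of the line, and the 17 kinases and phosphatases all lie right of it.

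The entries with the most similar levels over the 3 libraries were found for the 4 members of at least 5 FPKM, among 20598 entries with a symbol. The measure is the largest absolute log2 difference in any library. The closest to Vim was Gnb1, with 370, 422 and 376 FPKM (0.05), and the closest to Ina was Dpysl3, with 373, 371 and 371 FPKM (0.08). Nefm was closest to Trp53bp1, with 65.3, 60.0 and 63.7 FPKM (0.04), and Nefl to Ddx6, with 57.5, 50.8 and 50.3 FPKM (0.04). Over 3 libraries of 1 group this likeness is mostly one of level.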

How the data were processed

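RNA was measured in 3 libraries of 1 group. Per the labels' protocols, the kit was stranded and reads were paired, of 50 bp. Quality control with FastQC, trimming with Trimmomatic 0.22 and alignment with STAR are tools in the submitters' processing notes, as is the build rn6. How FPKM were computed (tool, annotation, strand, multiply mapped reads) is not given in the sources used here. Values are the authors' FPKM, deposited with 2 decimals, 1 column per library. FPKM are not counts, so no count test or counting interval was used, and errors of length or mapping that all libraries share are not covered.

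Members were matched by symbol, ignoring case. Values were used as log2(FPKM + 0.1) and tested in R 4.3.3 by limma 3.58.1 and statmod 1.5.0, with a variance trend, a robust prior and a threshold of 0.05 on p adjusted over all entries. An exact sign-flip test on 3 libraries cannot go below p = 0.25. In the fits of ratios, every entry shares the error of its reference gene, which can make p too small, so only those of close pairs are printed. A prior from single genes and exchanged references were tried after the data were seen. The members, lists and tests were chosen with earlier results of these data known. Some listed genes are not reported here and are left out of the counts of their lists. Of 136 other listed genes, 8 matched no entry and were not analysed here; for Capns1, which had 2 entries, the higher was taken. By rule, the text names all members, the 3 highest and the lowest gene of each list of genes that act with filaments, the highest and the undetected genes of marker lists, and the closest entry in level. Other listed genes are given as counts or were chosen after their values were seen. The latter are Synm, Des, Evpl, Cdk5, Casp6, Capns1, Sox9, Pax3, Hes1, Sox10, Csf1r and the astrocyte genes. Dcx, Map2, Syt1, Top2a, Mki67 and Boc were chosen in the same way. Lists of oligodendrocyte, muscle and erythroid genes are not described in the text. Promoter windows came from RefSeq (GRCr8), and 5 of 8 members were in that table. Tests were also run on simulated data, with errors drawn independently for each gene and library. Such data hold no effect shared within a library, so they do not check the tests for one. Alternatives were pseudocounts, library scaling, filters, levels, priors, a margin for ratios and each library left out. Python 3.11.15, pandas 2.3.3 and matplotlib 3.10.9 made the figures.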

Additional observations from a re-analysis of the deposited data

How the results depend on the processing

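The 5 members called above 1 FPKM were 5 under each pseudocount, scaling, filter and prior and without each library; the count was 6 at a level of 0.5 FPKM and 4 at 5 FPKM, where Nes lay below the level by 0.65 on the log2 scale (value -0.65; limma, Benjamini-Hochberg adjusted p = 1). The 38 genes of the 8 lists above 1 FPKM were 36 to 40 under all alternatives; the other cytoplasmic filaments 2 at 0.5 FPKM. Of 28 pairs, 25 to 28 passed under each alternative, and those lost were Vim with Ina, Nefm with Nefl, and Nefh with Prph. Subunit shares were rerun only as a median over libraries and without each library. With 3 libraries neither can move a mean by 1 SD, so these reruns do not test the shares. The deviation of library 2 without centring was -0.090 for Nefm, -0.23 for Nefh, 0.10 for Ina, 0.12 for Nes and 0.16 for Vim. With a pseudocount of 0.01 it was -2.55 for Gfap, and with 1 it was -0.20 for Gfap and -0.26 for Prph, by construction at such low levels. No paired analysis was possible because the series has 1 group. The values of Gfap, Prph and Nefh are low, and how far depth limits what they can show is not known.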
